A study of Equus caballus with 45 samples.

Results

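Equine synoviocytes, the fibroblast-like cells that line the joint, were given conditioned medium (CM) of mesenchymal stromal cells (MSC) activated through the STING pathway, and their transcriptome was compared with that of synoviocytes given CM of resting MSC. The comparison rests on 6 of the 45 libraries of the series, 3 with STING-MSC-CM and 3 with resting MSC-CM, chosen by their labels and described across all genes. All 6 synoviocyte cultures also received IL-1β and TNF-α, each at 20 ng/mL by the labels, so neither group was unstimulated. The CM was mixed 1:3 with culture medium and left on the cells for 24 h, after which the cells were washed and kept for a further 24 h before RNA was collected. The STING-MSC had been exposed for 2 h to 2′3′-cGAMP, the natural STING ligand, which the labels give at 10 ng/mL and the methods of the study at 10 μg/mL. Resting MSC received no agonist. The synoviocytes came from the femoropatellar joint of 1 horse, whereas the MSC came from 3 horses by the methods of the study. The labels give each library a line name, AG1, ORC or PC, and do not say whether it names the MSC that made the medium. Of the MSC libraries in the series only those named PC share one of these names, and the libraries without MSC-CM carry such a name as well. With synoviocytes of 1 horse, p-values measure the spread between cultures and not between synoviocyte donors. Single libraries of synoviocytes with the cytokines only and with no addition, and 3 with CM of MSC activated through TLR3 (TLR-MSC-CM), served for orientation.

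STING is an adaptor in the cytosol that detects cyclic dinucleotides made by cGAS when DNA is present outside the nucleus, and its activation leads to type I interferons and to inflammatory cytokines. Factors that MSC release after such a stimulus can reach other joint cells through the medium. Type I interferons act through IFNAR1 and its partner to switch on antiviral genes such as MX1, ISG15 and the IFIT family. Synoviocytes answer IL-1β and TNF-α with NF-κB target genes, among them IL6, CXCL8, PTGS2 and the matrix metalloproteinases, and they make the hyaluronan and much of the collagen of the joint lining.

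The 6 libraries held 24650628 to 44084971 counted reads each. Of 20881 protein coding genes in the count table, 14584 had at least 10 counts over the 9 synoviocyte libraries with MSC-CM and were tested. Levels are given as CPM, the reads of a gene relative to the reads counted in its library after TMM scaling. In each series of 3 values the libraries stand in the order AG1, ORC and PC. Fold changes are log2 values from edgeR, STING-MSC-CM minus resting MSC-CM, with their standard error (SE). A gene given with a fold change and no p had an unadjusted p below 0.05 and an adjusted p of 0.676, and for other genes the adjusted p is given unless stated otherwise. Several markers of fibroblast-like synoviocytes were abundant, and others of the same list were near 0. VIM ranged from 3001 to 4114 CPM, THY1 from 271 to 355 CPM, PDPN from 83.6 to 107 CPM and CDH11 from 255 to 297 CPM. CD55 ranged from 0.314 to 0.93 CPM, while CLIC5 did not pass 0.158 CPM and GDF5 did not pass 0.0964 CPM in the 6 libraries. PRG4, the lubricin gene, was not analysed here. Of 19 macrophage markers in the table, 3 had no count in the 6 libraries. Their summed level was 15.4 to 19.5 CPM with resting MSC-CM and 14.7 to 15.9 CPM with STING-MSC-CM, most of it CD68. CD163 and CSF1R did not pass 0.0806 CPM in any of the 6 libraries. The cartilage collagen COL2A1 was at 0 in 5 of the 6 libraries and the endothelial cadherin CDH5 in 4 of them. PECAM1, an adhesion molecule of endothelium, was nevertheless at 81.9 to 84.9 CPM with resting MSC-CM and 83 to 92.4 CPM with STING-MSC-CM.

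Line ORC stood apart from the other lines. The median absolute log2 difference between STING-MSC-CM and resting MSC-CM was 0.177 for ORC, 0.0918 for AG1 and 0.102 for PC, over 11682 genes with a mean of at least 1 CPM. This difference within a line does not tell which of its libraries set it. In both groups the ORC library lay farther from the AG1 and PC libraries than these lay from each other. With resting MSC-CM the median was 0.1398 to AG1 and 0.1317 to PC, against 0.1106 between AG1 and PC. With STING-MSC-CM it was 0.0965 between ORC and PC, against 0.0847 between AG1 and PC. The SD between libraries was larger with resting MSC-CM than with STING-MSC-CM for 64.2% of these genes. The median absolute change between the group means was 0.0829 on the log2(CPM + 1) scale. Whether the ORC library with resting MSC-CM was aberrant or line ORC changed more than the others was not tested. Some results are also given without the ORC library with resting MSC-CM. A gene given without such a value need not keep an unadjusted p below 0.05 there.

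No single gene passed the adjusted threshold in synoviocytes. With edgeR's quasi-likelihood test, 0 of 14584 genes (0.0%) had a Benjamini-Hochberg adjusted p below 0.05, and the smallest adjusted p was 0.676. At an unadjusted p below 0.05, 450 genes were higher (3.09%) and 523 were lower (3.59%) with STING-MSC-CM, 973 in all. DESeq2 gave 0 genes by adjusted p and 975 by unadjusted p. The differences were small. Among the 844 of the 973 genes with a mean of at least 1 CPM, the median size of the log2 fold change was 0.28 and 7 genes passed 1. Every library with STING-MSC-CM lay above every library with resting MSC-CM for 817 of the 11682 genes at that level (6.99%) and below it for 908 (7.77%). The smallest p that an exact permutation test of 3 libraries against 3 can give is 0.1.

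Many of these genes turned on the ORC library with resting MSC-CM. It was the highest of the 6 libraries in 391 of the 466 lower genes with at least 1 CPM, and the lowest in 304 of the 378 higher ones. Without it, 382 genes had an unadjusted p below 0.05, 205 higher and 177 lower, of which 272 were among the 973. Leaving out the ORC library with STING-MSC-CM gave 466 genes, of which 351 were among the 973. Leaving out the AG1 library with resting MSC-CM gave 1732. In 966 of the 973 genes the direction was the same without the ORC library with resting MSC-CM. A set of 133 genes kept an unadjusted p below 0.05 and their direction when any 1 of the 6 libraries was left out, 71 higher and 62 lower. Both counts are over genes chosen by their p in largely the same libraries, which favours them. The library with the cytokines only lay nearer to the mean with STING-MSC-CM than to the mean with resting MSC-CM in 381 of the 466 lower and 297 of the 378 higher genes, and in 64.5% of the 11682 genes.

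**Figure D1:**
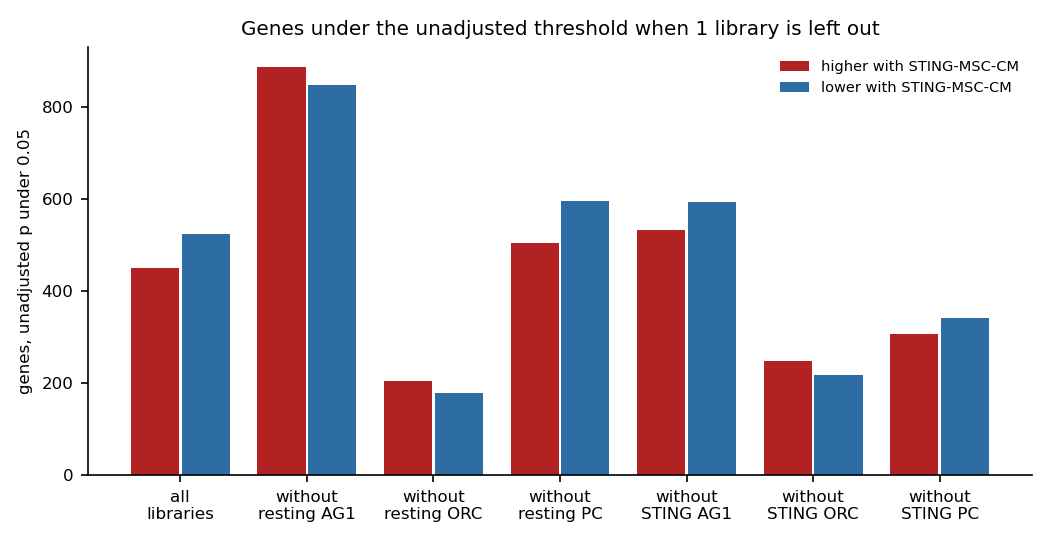
Number of genes with an unadjusted p below 0.05 (y axis), higher (red) or lower (blue) in synoviocytes with STING-MSC-CM, using all libraries and leaving out 1 of the 6 libraries at a time (x axis). The count was 450 higher and 523 lower with all libraries, and 205 and 177 without the ORC library with resting MSC-CM.

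Genes of DNA replication and of mitosis were lower with STING-MSC-CM, in most libraries by a small amount. Of 63 S phase genes tested, 62 had a negative fold change, with a median of −0.33, against 0.0018 over all genes tested. Of these, 22 had an unadjusted p below 0.05 (34.9% of the list, against 3.59% of all genes), and 0 in the other direction. Among 78 mitosis genes, 78 had a negative fold change, with a median of −0.22, and 19 had an unadjusted p below 0.05 (24.4%). No gene of either list passed the adjusted threshold. The counts under the unadjusted threshold were 35 and 24 with DESeq2, and 13 and 16 with the line as a block. Mitosis genes did not overlap between the groups, with STING-MSC-CM below, in 39 cases against 7.77% of genes with at least 1 CPM.

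The size of this shift differed between the lines. The mean log2 level of the S phase genes was 4.31, 4.81 and 4.47 with resting MSC-CM and 4.32, 4.11 and 4.24 with STING-MSC-CM, and the difference within a line was 0.011 for AG1, −0.69 for ORC and −0.22 for PC. The 3 libraries with STING-MSC-CM lay close together, and the AG1 library with resting MSC-CM lay among them. For the mitosis genes the differences were −0.038 for AG1, −0.38 for ORC and −0.21 for PC. The level with the cytokines only was 4.15 for the S phase genes and 5.28 for the mitosis genes, and 3.96 and 5.13 with no addition. Both were under the lowest library with resting MSC-CM. Without the ORC library with resting MSC-CM, the medians were −0.18 and −0.16, and 5 S phase and 6 mitosis genes had an unadjusted p below 0.05. In a culture, fewer cycling cells and less of these transcripts per cell cannot be told apart. With TLR-MSC-CM, which was compared with the same 3 resting libraries, the medians were −0.34 and −0.27. The mean log2 level of the S phase genes there was 4.35, 3.97 and 4.33, lowest for ORC.

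**Figure D2:**
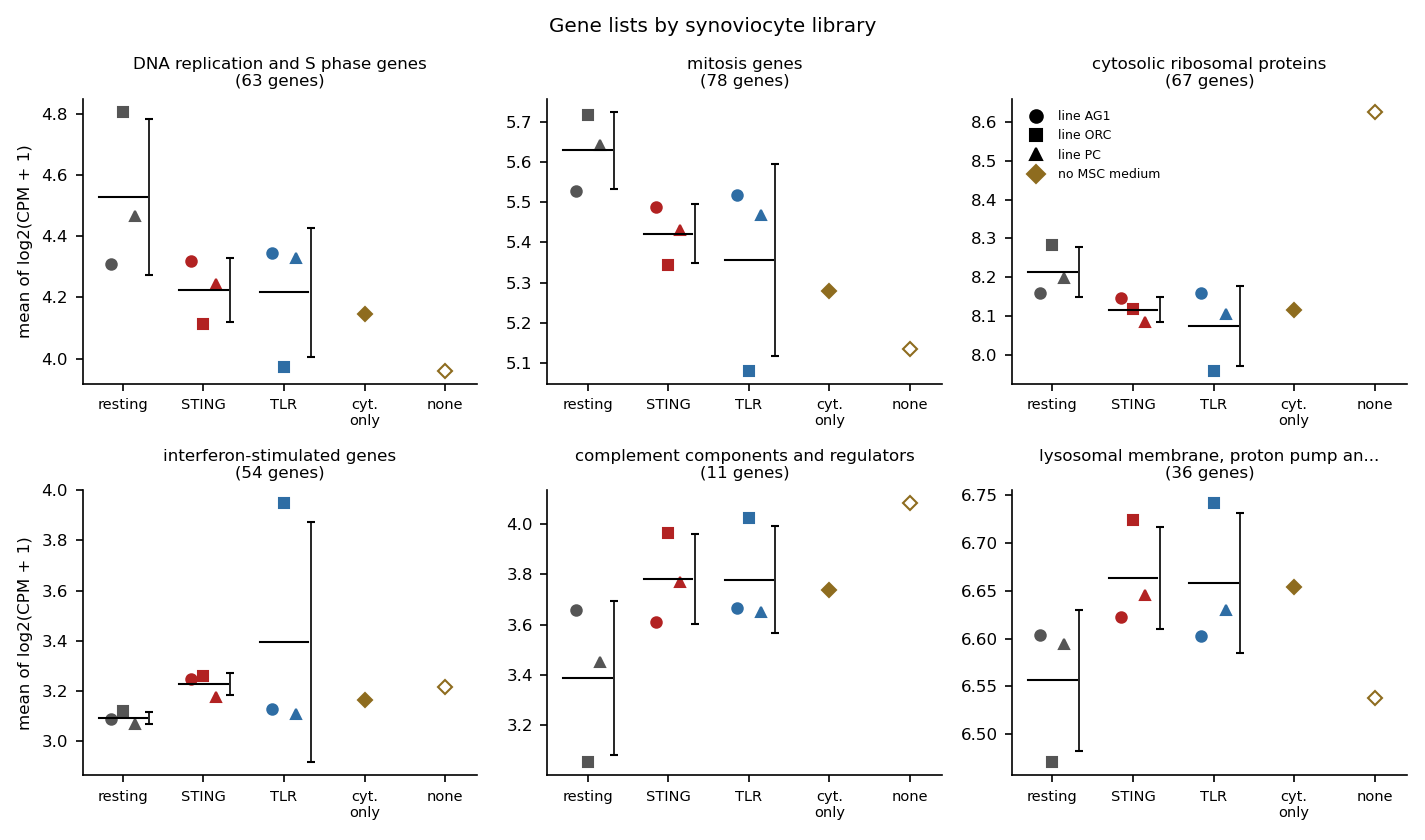
Mean of log2(CPM + 1) over the genes of 6 lists (y axes, which do not start at 0) in each synoviocyte library, by medium (x axis). Each point is 1 library, with the line given by its shape, the line is the mean of 3 libraries and the bar its SD. The S phase genes were at 4.81 in the ORC library with resting MSC-CM and between 4.11 and 4.32 in the 3 libraries with STING-MSC-CM.

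POLA2, a subunit of the DNA polymerase α-primase complex, was at 16.2, 23 and 17.7 CPM with resting MSC-CM and 13.1, 13 and 13.8 CPM with STING-MSC-CM. The groups did not overlap, with a fold change of −0.51 ± 0.12 (SE), and of −0.35 (unadjusted p below 0.05) without the ORC library with resting MSC-CM. RRM2, the small subunit of ribonucleotide reductase, was at 85.2, 108.5 and 91.8 CPM with resting MSC-CM and 72.3, 73.6 and 73.5 CPM with STING-MSC-CM. All 3 libraries with STING-MSC-CM lay within a narrow range below the lowest resting one, and the fold change was −0.38 ± 0.093. The histone variant H2AX was at 42.4, 46.8 and 40.6 CPM with resting MSC-CM and 33.6, 34.6 and 36.2 CPM with STING-MSC-CM, again without overlap (−0.31 ± 0.082). PCNA, the sliding clamp of the replication fork, was at 47.5, 67.8 and 57.7 CPM with resting MSC-CM and 48.2, 46.1 and 46 CPM with STING-MSC-CM. Here the AG1 library with resting MSC-CM lay within the range of the STING-MSC-CM libraries, and the fold change was −0.30 ± 0.1. MCM3, a subunit of the replicative helicase, was at 58.3, 109 and 65.8 CPM with resting MSC-CM and 57.6, 44.9 and 54.1 CPM with STING-MSC-CM, so that the ORC library with resting MSC-CM was far above the other 5. Its fold change was −0.57 ± 0.27, adjusted p = 0.676, and without that library it was −0.24 (unadjusted p above 0.05).

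The replication and division genes named here and above were not all members of the lists. Of the 12 lower genes with the smallest p, 4 were in the S phase, mitosis or cell cycle lists. ESPL1 encodes separase, which cuts cohesin at anaphase. It was at 29.3, 30.3 and 25.4 CPM with resting MSC-CM and 23.5, 22.4 and 22.3 CPM with STING-MSC-CM, with no overlap and a fold change of −0.32 ± 0.087. KIF18B, a kinesin of the mitotic spindle, ranged over 30.7 to 34.8 CPM with resting MSC-CM and 24.9 to 26.9 CPM with STING-MSC-CM (−0.31 ± 0.091). MASTL, a kinase that holds off PP2A during mitosis, ranged over 13.9 to 20.2 CPM and 11.4 to 13.6 CPM (−0.46 ± 0.13). NEMP1, a protein of the inner nuclear membrane, ranged over 28.6 to 32.6 CPM and 22.9 to 25.2 CPM (−0.34 ± 0.089). None of these 4 genes overlapped between the groups, as their choice by the smallest p favours. TOP2A ranged over 187 to 226 CPM and 168 to 193 CPM (−0.23 ± 0.1), and its groups overlapped. CCNB1, cyclin B1, was 113 to 127 CPM and 105 to 109 CPM without overlap (−0.16 ± 0.097, adjusted p = 0.684). Regulators of the G1 phase and p53 target genes were lower in 19 of 33, with a median of −0.011. Of them 3 were lower and 0 higher at an unadjusted p below 0.05 (9.09%, against 3.59% of all genes), 4 and 0 with the line as a block, and 0 and 0 without the ORC library with resting MSC-CM, where the median was 0.0097. CDK4 was among them at 117 to 131 CPM with resting MSC-CM and 104 to 111 CPM with STING-MSC-CM (−0.18 ± 0.072).

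Most genes of protein synthesis had a small negative fold change. Of 67 cytosolic ribosomal protein genes, 62 had a negative fold change, with a median of −0.099, and 4 had an unadjusted p below 0.05 (5.97%, against 3.59% of all genes). Translation factors were lower in 35 of 41 (median −0.08, 1 at an unadjusted p below 0.05, 2.44%) and ribosome biogenesis genes in 43 of 46 (median −0.10, 5 at that threshold, 10.9%, which became 1 with a median of −0.051 without the ORC library with resting MSC-CM). Within lines the mean differences of the ribosomal protein genes were −0.011 for AG1, −0.17 for ORC and −0.11 for PC, and the median was −0.064 without the ORC library with resting MSC-CM, with 0 genes at an unadjusted p below 0.05. With the line as a block, 1 ribosomal protein gene remained under that threshold. RPL28, a protein of the large ribosomal subunit, was at 323, 359.8 and 322 CPM with resting MSC-CM and 290.3, 293 and 298 CPM with STING-MSC-CM, without overlap (−0.19 ± 0.073). RPL3 was at 878, 1030.4 and 892 CPM with resting MSC-CM and 849, 813 and 781 CPM with STING-MSC-CM (−0.20 ± 0.086). EEF2, the elongation factor that moves the ribosome along the mRNA, was at 2594, 2838 and 2532 CPM with resting MSC-CM and 2422, 2278 and 2325 CPM with STING-MSC-CM (−0.18 ± 0.079). RRS1, which takes part in assembling the large subunit, was at 10.1 to 12.2 CPM with resting MSC-CM and 7.25 to 9.12 CPM with STING-MSC-CM (−0.40 ± 0.12). With no MSC-CM and no cytokine, the summed ribosomal protein genes were at 36860 CPM, against 25748 CPM with the cytokines only.

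Stress genes under ATF4 and the unfolded protein response had a negative fold change in 26 of 30, with a median of −0.14, but 0 had an unadjusted p below 0.05. Within lines the differences were −0.016 for AG1, −0.32 for ORC and −0.14 for PC, and the median was −0.081 without the ORC library with resting MSC-CM and −0.067 without both ORC libraries. Cholesterol and fatty acid synthesis genes were lower in 32 of 35, with a median of −0.11. At an unadjusted p below 0.05, 2 were lower (5.71%, against 3.59% of all genes) and 1 was higher (2.86%, against 3.09%). Without the ORC library with resting MSC-CM the median was −0.033, 25 genes were lower, and 0 lower and 2 higher had an unadjusted p below 0.05. The median without both ORC libraries was 0.0025. Every library with STING-MSC-CM lay above every resting one in 2 members and below in 1. Over genes with at least 1 CPM the shares were 6.99% and 7.77%. TM7SF2, a sterol reductase and 1 of the higher members, was at 4.92, 5.15 and 4.33 CPM with resting MSC-CM and 6.01, 7.66 and 6.65 CPM with STING-MSC-CM (0.49 ± 0.14).

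Interferon-stimulated genes were higher by small amounts, and the antiviral genes MX1, ISG15, IFIT2 and IFIT3 did not separate the groups. Of 54 such genes tested, 42 had a positive fold change, with a median of 0.10, and 3 had an unadjusted p below 0.05 (5.56%, against 3.09% of all genes). Within lines the mean differences were 0.16 for AG1, 0.14 for ORC and 0.11 for PC. Without the ORC library with resting MSC-CM the median was 0.13, with 2 genes at an unadjusted p below 0.05, and with the line as a block there was 1. Every library with STING-MSC-CM lay above every resting one in 10 of the 54 genes and below in 1. Over genes with at least 1 CPM the shares were 6.99% and 7.77%. RSAD2, an antiviral gene, was without overlap at 13.1, 12.3 and 13 CPM with resting MSC-CM and 14, 15.8 and 13.2 CPM with STING-MSC-CM (0.16 ± 0.11, adjusted p = 0.707). The GTPase MX1 was at 5.14, 6.15 and 6.14 CPM with resting MSC-CM and 6.12, 8.26 and 4.65 CPM with STING-MSC-CM, and the groups overlapped (0.12 ± 0.52, adjusted p = 0.966). ISG15, a ubiquitin-like modifier, was at 5.18, 4.4 and 4.12 CPM with resting MSC-CM and 5.58, 8.87 and 3.97 CPM with STING-MSC-CM (0.41 ± 0.71, adjusted p = 0.899). In both genes the ORC library with STING-MSC-CM was the highest of the 6, and the PC library with STING-MSC-CM was below that with resting MSC-CM. IFIT3, an RNA-binding antiviral protein, was at 0.579, 0.286 and 0.802 CPM with resting MSC-CM and 0.813, 1.33 and 0.644 CPM with STING-MSC-CM (0.71 ± 1.35, adjusted p = 0.91). IFIT2 was at 2.73, 2 and 4.19 CPM with resting MSC-CM and 3.48, 3.51 and 4.04 CPM with STING-MSC-CM (0.30 ± 0.34, adjusted p = 0.827).

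With TLR-MSC-CM, set against the same resting libraries, the same genes were high in the ORC library alone. MX1 was at 6.14, 17.7 and 5.16 CPM, ISG15 at 5.49, 21.4 and 4.19 CPM and IFIT3 at 0.648, 8.81 and 0.659 CPM. The median over the list with TLR-MSC-CM was 0.35.

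A few genes of the interferon system did separate the groups. TNFSF10, the death ligand TRAIL, was at 2.22, 1.72 and 1.81 CPM with resting MSC-CM and 3.48, 3.87 and 4.58 CPM with STING-MSC-CM. Each library with STING-MSC-CM exceeded each resting one, with a fold change of 1.04 ± 0.31, and 0.97 (unadjusted p below 0.05) without the ORC library with resting MSC-CM. The library with the cytokines only was at 2.93 CPM and that with no addition at 8.61 CPM. PLSCR1, a phospholipid scramblase, was at 26.1, 20.4 and 27 CPM with resting MSC-CM and 27.9, 30.5 and 27.1 CPM with STING-MSC-CM (0.22 ± 0.098), and its fold change without the ORC library with resting MSC-CM was 0.10 (unadjusted p above 0.05). Of the receptors, IFNGR2, which binds interferon-γ with IFNGR1, was at 45.3, 30.8 and 39.9 CPM with resting MSC-CM and 47.4, 52.3 and 47.9 CPM with STING-MSC-CM (0.35 ± 0.11). IFNAR1 was at 128, 111 and 135 CPM with resting MSC-CM and 142, 156 and 147 CPM with STING-MSC-CM (0.25 ± 0.094). STING1 itself was at 7.84, 7.8 and 9.04 CPM with resting MSC-CM and 9.35, 11.5 and 8.48 CPM with STING-MSC-CM, with overlap (0.25 ± 0.16, adjusted p = 0.696). In antigen presentation, B2M, the light chain of MHC class I, was at 298, 256 and 291 CPM with resting MSC-CM and 340.4, 321 and 320.5 CPM with STING-MSC-CM (0.22 ± 0.1), and PSME2, a subunit of the proteasome activator PA28, at 26, 25.2 and 26.6 CPM with resting MSC-CM and 27.8, 31 and 30.4 CPM with STING-MSC-CM (0.20 ± 0.076). Over 15 genes of class I presentation the median was 0.038. At an unadjusted p below 0.05, 2 were higher (13.3%, against 3.09% of all genes). Without the ORC library with resting MSC-CM the median was 0.06 and the number 0.

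**Figure D3:**
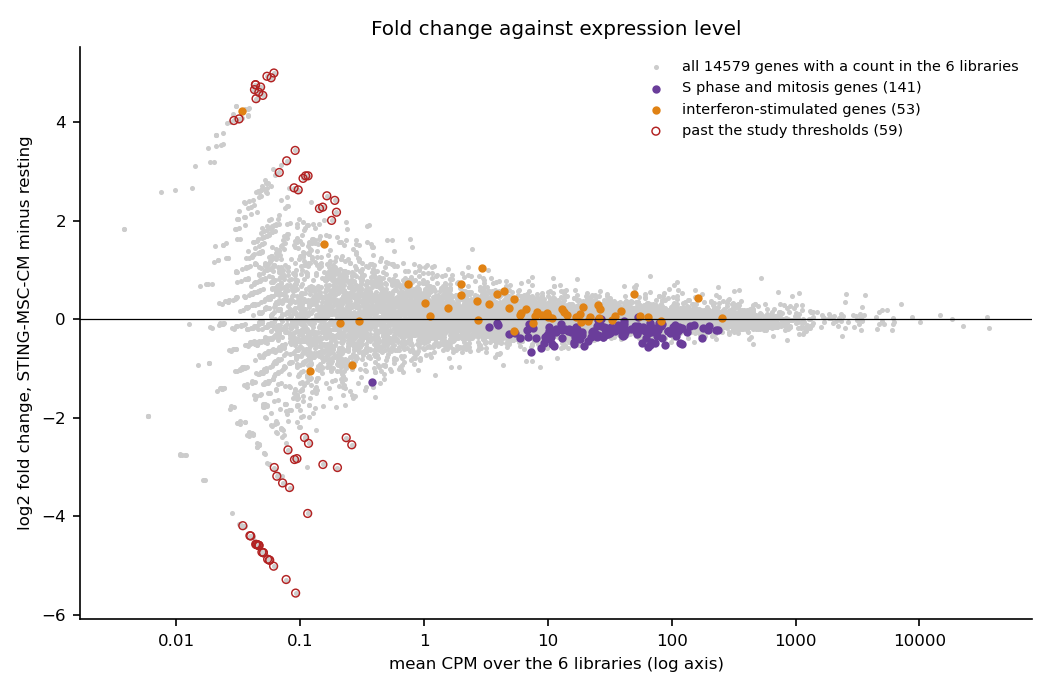
Log2 fold change of each gene, STING-MSC-CM minus resting MSC-CM (y axis), against its mean CPM over the 6 libraries (x axis, log scale) for the 14579 tested genes that had a count in these libraries. S phase and mitosis genes (purple) lay below 0 and most interferon-stimulated genes (orange) slightly above it, while the 59 genes past the study's thresholds (open red circles) all had a mean below 1 CPM.

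The 18 cytokine genes tested had a median of −0.12. At an unadjusted p below 0.05, 3 were lower (16.7%, against 3.59% of all genes) and 0 higher. The 12 chemokine genes had a median of −0.0018, with 0 at that threshold in either direction. Without the ORC library with resting MSC-CM the median of the cytokine genes was 0.0025, with 1 lower at an unadjusted p below 0.05, and 0.026 without both ORC libraries, so that their direction turned. That of the chemokine genes was −0.10 without the resting one, with 1 lower. IL6 was at 1064, 654 and 1037 CPM with resting MSC-CM and 987, 1152 and 1206 CPM with STING-MSC-CM (0.28 ± 0.18, adjusted p = 0.698). Only the ORC library with resting MSC-CM differed visibly from the other 5. CXCL8, the neutrophil chemokine IL-8, was at 12.4, 16.5 and 18.2 CPM with resting MSC-CM and 11, 12.5 and 16.9 CPM with STING-MSC-CM (−0.23 ± 0.17, adjusted p = 0.716), with overlap. Within each of the 3 lines CXCL8 was lower with STING-MSC-CM. IL1B was near the limit of detection, at 0.129, 0.107 and 0.314 CPM and 0.181, 0.363 and 0.179 CPM. For orientation, IL6 was at 1353 CPM with the cytokines only and 259.8 CPM with no addition, and CXCL8 at 23.3 and 0.568 CPM. LIF, an IL-6 family cytokine, was at 18.5, 22.2 and 21.8 CPM with resting MSC-CM and 16.5, 13.1 and 20.1 CPM with STING-MSC-CM (−0.33 ± 0.13), lower in every line but with overlap. IL12A was at 0.45, 0.358 and 0.419 CPM with resting MSC-CM and 0.158, 0.0806 and 0.143 CPM with STING-MSC-CM (−1.61 ± 0.66), without overlap at a very low level. The chemokine CXCL6 was the most abundant of its list at 5577 to 6577 CPM with resting MSC-CM and 5419 to 6848 CPM with STING-MSC-CM (0.026 ± 0.1, adjusted p = 0.959). CCL2 ranged over 115 to 196 CPM and 171 to 200.4 CPM (0.11 ± 0.2, adjusted p = 0.899), and CCL26, an eotaxin, over 5.5 to 12.6 CPM and 2.82 to 6.3 CPM (−0.84 ± 0.38, adjusted p = 0.676).

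Among other inflammatory genes, ICAM1, which leukocytes bind on activated cells, was at 284, 354 and 309 CPM with resting MSC-CM and 278, 244 and 271 CPM with STING-MSC-CM. The groups did not overlap (−0.26 ± 0.085), and the fold change was −0.17 (unadjusted p above 0.05) without the ORC library with resting MSC-CM. VCAM1 was at 1126, 1105 and 1236 CPM with resting MSC-CM and 1138, 1145 and 1203 CPM with STING-MSC-CM (0.0091 ± 0.073, adjusted p = 0.984). S100A12, an alarmin, was at 12.9, 7.91 and 11.5 CPM with resting MSC-CM and 16.2, 17.5 and 14.4 CPM with STING-MSC-CM (0.57 ± 0.24). SOD2, the mitochondrial superoxide dismutase and an NF-κB target, was at 1059, 548 and 994 CPM with resting MSC-CM and 1068, 1481 and 1238 CPM with STING-MSC-CM, without overlap (0.54 ± 0.32, adjusted p = 0.691). PTGS2, the inducible cyclooxygenase, was at 432, 342 and 486 CPM with resting MSC-CM and 467, 495 and 600.3 CPM with STING-MSC-CM (0.31 ± 0.2, adjusted p = 0.698), higher within each line. ABCC4, a transporter that exports prostaglandins, was at 9.13, 10.2 and 11.4 CPM with resting MSC-CM and 13.8, 18.2 and 14 CPM with STING-MSC-CM without overlap (0.57 ± 0.24). The NF-κB subunits and feedback inhibitors had a median of 0.05 over 21 genes (0.0073 without the ORC library with resting MSC-CM), and NFKBIA was at 64.6, 43.3 and 59.1 CPM with resting MSC-CM and 61.1, 76.9 and 72.8 CPM with STING-MSC-CM (0.33 ± 0.17, adjusted p = 0.676).

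Complement genes had the highest median of the lists with at least 10 genes tested apart from the marker lists, and their difference was largest for line ORC. Of 11 genes, 10 had a positive fold change, with a median of 0.53. At an unadjusted p below 0.05, 2 were higher (18.2%, against 3.09% of all genes). The mean difference over the 11 genes was −0.049 for AG1, 0.92 for ORC and 0.32 for PC, so that AG1 went the other way. C7, a component of the membrane attack complex, was at 2.99, 2.72 and 3.24 CPM with resting MSC-CM and 3.39, 5.04 and 4.26 CPM with STING-MSC-CM (0.49 ± 0.19). CFI, the protease that inactivates C3b, was at 2.25, 1.47 and 1.78 CPM with resting MSC-CM and 2.05, 3.26 and 2.93 CPM with STING-MSC-CM (0.56 ± 0.23), and SERPING1, the C1 inhibitor, at 31.7, 19 and 27.6 CPM with resting MSC-CM and 32.6, 40.4 and 30.1 CPM with STING-MSC-CM (0.39 ± 0.24, adjusted p = 0.691). Without the ORC library with resting MSC-CM the median was 0.42 and 0 genes had an unadjusted p below 0.05.

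Of the genes that build and break down matrix, HAS2 gave the clearest difference. HAS2, the main hyaluronan synthase of synoviocytes, was at 7.75, 8.3 and 7.29 CPM with resting MSC-CM and 5.98, 3.91 and 5.37 CPM with STING-MSC-CM. All libraries with STING-MSC-CM lay below all with resting MSC-CM, with a fold change of −0.60 ± 0.16 (−0.55, unadjusted p below 0.05 without the ORC library with resting MSC-CM). It was at 5.83, 4.74 and 6.39 CPM with TLR-MSC-CM, 6.95 CPM with the cytokines only and 2.02 CPM with no addition. HMMR, a hyaluronan receptor that is also a mitotic spindle protein, was at 50.2, 54.3 and 57.1 CPM with resting MSC-CM and 47.9, 43.5 and 48.6 CPM with STING-MSC-CM (−0.20 ± 0.081). MMP13, the collagenase that cuts type II collagen, was at 485, 179.8 and 469 CPM with resting MSC-CM and 562, 863 and 616 CPM with STING-MSC-CM. The groups did not overlap, and the ORC library with resting MSC-CM was the lowest of the 6. The fold change was 0.85 ± 0.47, adjusted p = 0.683, and it was 0.51 (unadjusted p above 0.05) without it. MMP1 was at 5032, 4862 and 5349 CPM with resting MSC-CM and 5163, 6586 and 5725 CPM with STING-MSC-CM (0.20 ± 0.11, adjusted p = 0.676). The aggrecanases ADAMTS4 and ADAMTS5 had fold changes of −0.0022 ± 0.087 and 0.12 ± 0.084, and TIMP3, an inhibitor of these enzymes, of 0.28 ± 0.19, none at an unadjusted p below 0.05. Over the 30 metalloproteinase, ADAMTS and TIMP genes the median was 0.093 (0.047 without the ORC library with resting MSC-CM), and 0 had an unadjusted p below 0.05.

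Collagen genes were split, 18 of 34 higher, with a median of 0.03 that turned to −0.058 without the ORC library with resting MSC-CM. COL1A1 was at 39862, 38631 and 36983 CPM with resting MSC-CM and 36356, 32099 and 33845 CPM with STING-MSC-CM, without overlap (−0.17 ± 0.1, adjusted p = 0.682), and COL3A1 at 30732 to 37611 CPM and 35001 to 36747 CPM (0.053 ± 0.091, adjusted p = 0.894). Matrix glycoproteins and small leucine-rich proteoglycans were higher in 26 of 34, with a median of 0.18. At an unadjusted p below 0.05, 4 were higher (11.8%, against 3.09% of all genes) and 1 was lower (2.94%, against 3.59%). Within lines the differences were −0.02 for AG1, 0.50 for ORC and 0.086 for PC, and the median was 0.098 without the ORC library with resting MSC-CM. THBS4, a thrombospondin of tendon and injured tissue, was at 0.45, 0.286 and 0.523 CPM with resting MSC-CM and 1.04, 1.69 and 0.823 CPM with STING-MSC-CM. It did not overlap between the groups (1.47 ± 0.4). NID2, a basement membrane protein, was at 1118, 1317 and 1097 CPM with resting MSC-CM and 1022, 863 and 989 CPM with STING-MSC-CM (−0.30 ± 0.11).

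**Figure D4:**
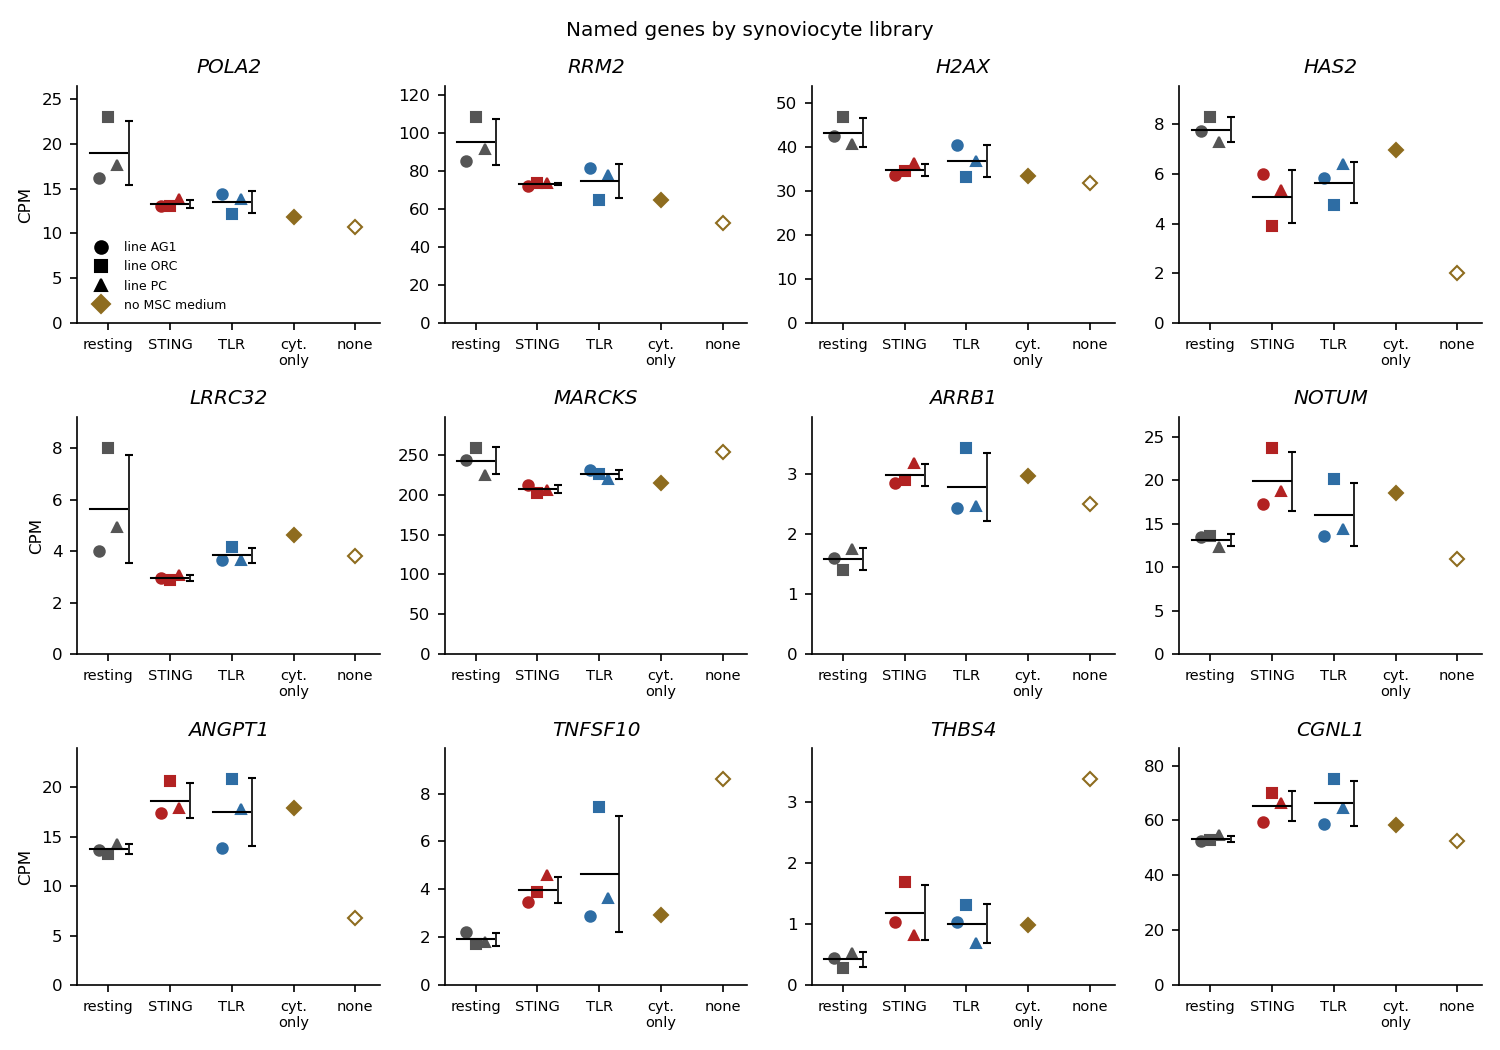
Level in CPM (y axes, from 0) of 12 named genes in each synoviocyte library, by medium (x axis). Points are libraries with the line given by their shape, lines the mean of 3 libraries and bars the SD. In all 12 genes the libraries with STING-MSC-CM did not overlap those with resting MSC-CM, as for HAS2 with 3.91 to 5.98 CPM against 7.29 to 8.30 CPM. Most of these genes were chosen by their small p in the same libraries, which favours this. Over genes with at least 1 CPM, 6.99% lay above without overlap and 7.77% below.

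Signalling genes with the smallest p-values came from several pathways. ARRB1, β-arrestin 1, which uncouples receptors from G proteins, had the smallest p on the higher side and was at 1.61, 1.4 and 1.74 CPM with resting MSC-CM and 2.85, 2.9 and 3.18 CPM with STING-MSC-CM (0.91 ± 0.21). NOTUM, a secreted enzyme that inactivates Wnt ligands by removing their lipid, was at 13.4, 13.6 and 12.3 CPM with resting MSC-CM and 17.2, 23.7 and 18.7 CPM with STING-MSC-CM (0.60 ± 0.15). WNT5A was at 26.2, 31.9 and 29.1 CPM with resting MSC-CM and 22.2, 21.2 and 26.5 CPM with STING-MSC-CM (−0.32 ± 0.1), lower in every line, with overlap. The remaining Wnt genes were mixed, and the median over 38 was 0.051 (0.028 without the ORC library with resting MSC-CM). ANGPT1, the ligand of the TEK receptor, was at 13.6, 13.3 and 14.2 CPM with resting MSC-CM and 17.4, 20.6 and 17.9 CPM with STING-MSC-CM (0.44 ± 0.12). LRRC32, which holds latent TGF-β at the cell surface, had the smallest p on the lower side and was at 3.99, 8.01 and 4.95 CPM with resting MSC-CM and 2.96, 2.86 and 3.08 CPM with STING-MSC-CM (−0.92 ± 0.21). Its fold change was −0.59 (unadjusted p below 0.05) without the ORC library with resting MSC-CM. The 33 contractile and TGF-β target genes tested had a median of −0.003 (−0.05 without the ORC library with resting MSC-CM). FGF pathway genes were higher in 19 of 25, with a median of 0.14. At an unadjusted p below 0.05, 4 were higher (16%, against 3.09% of all genes). The median and this number became 0.081 and 0 without the ORC library with resting MSC-CM. ETV4, a transcription factor induced by FGF signals, was at 3.57, 2.04 and 2.37 CPM with resting MSC-CM and 3.5, 3.99 and 4.47 CPM with STING-MSC-CM (0.57 ± 0.22).

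The other genes among the 12 per direction with the smallest p-values had no common role. On the higher side these were MKLN1, at 44.1 to 47.8 and 54.7 to 61.5 CPM with resting MSC-CM and STING-MSC-CM (0.34 ± 0.088), and TMOD1, which caps actin filaments, at 4.47 to 6.35 and 8.23 to 8.5 CPM (0.57 ± 0.15). LVRN, an aminopeptidase, was at 1.82 to 2.03 and 3.12 to 4.23 CPM (0.88 ± 0.23), and NUP210, a nuclear pore protein, at 0.698 to 0.868 and 1.49 to 1.85 CPM (1.08 ± 0.3). ADAMTSL2, a matrix protein of the ADAMTS-like family, was at 0.488 to 0.932 and 1.01 to 1.72 CPM (1.10 ± 0.31), PROS1, the anticoagulant protein S, at 25.9 to 33.4 and 36.8 to 39.5 CPM (0.31 ± 0.089), and CGNL1, a junction protein, at 52.4 to 54.7 and 59.5 to 70 CPM (0.29 ± 0.084). MCMDC2 (0.32 ± 0.085) and FAM177A1 (0.39 ± 0.11) completed the higher side. On the lower side MARCKS, which binds actin and is a substrate of protein kinase C, was at 225 to 259 and 203 to 213 CPM (−0.23 ± 0.065). TP53I11 (−0.42 ± 0.12) and PUS7, a pseudouridine synthase (−0.32 ± 0.093), were the remaining ones. The groups did not overlap for any of the 24 genes, and all 24 kept an unadjusted p below 0.05 without the ORC library with resting MSC-CM. Of the 24, 22 kept it under all 18 alternatives. Their choice by the smallest p in the main fit favours each of these results, since the alternatives use mostly the same libraries. Lysosomal genes were higher in 33 of 36 with a median of 0.079, and 3 had an unadjusted p below 0.05 (8.33%, against 3.09% of all genes). Within lines the mean differences were 0.018 for AG1, 0.25 for ORC and 0.051 for PC. Without the ORC library with resting MSC-CM the median was 0.066 and the number 0, and the median was 0.027 without both ORC libraries. CTSK, cathepsin K, was at 311, 265 and 333 CPM with resting MSC-CM and 339.8, 394 and 349 CPM with STING-MSC-CM (0.25 ± 0.11). It kept an unadjusted p below 0.05 in 12 of the 18 alternatives.

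**Figure D5:**
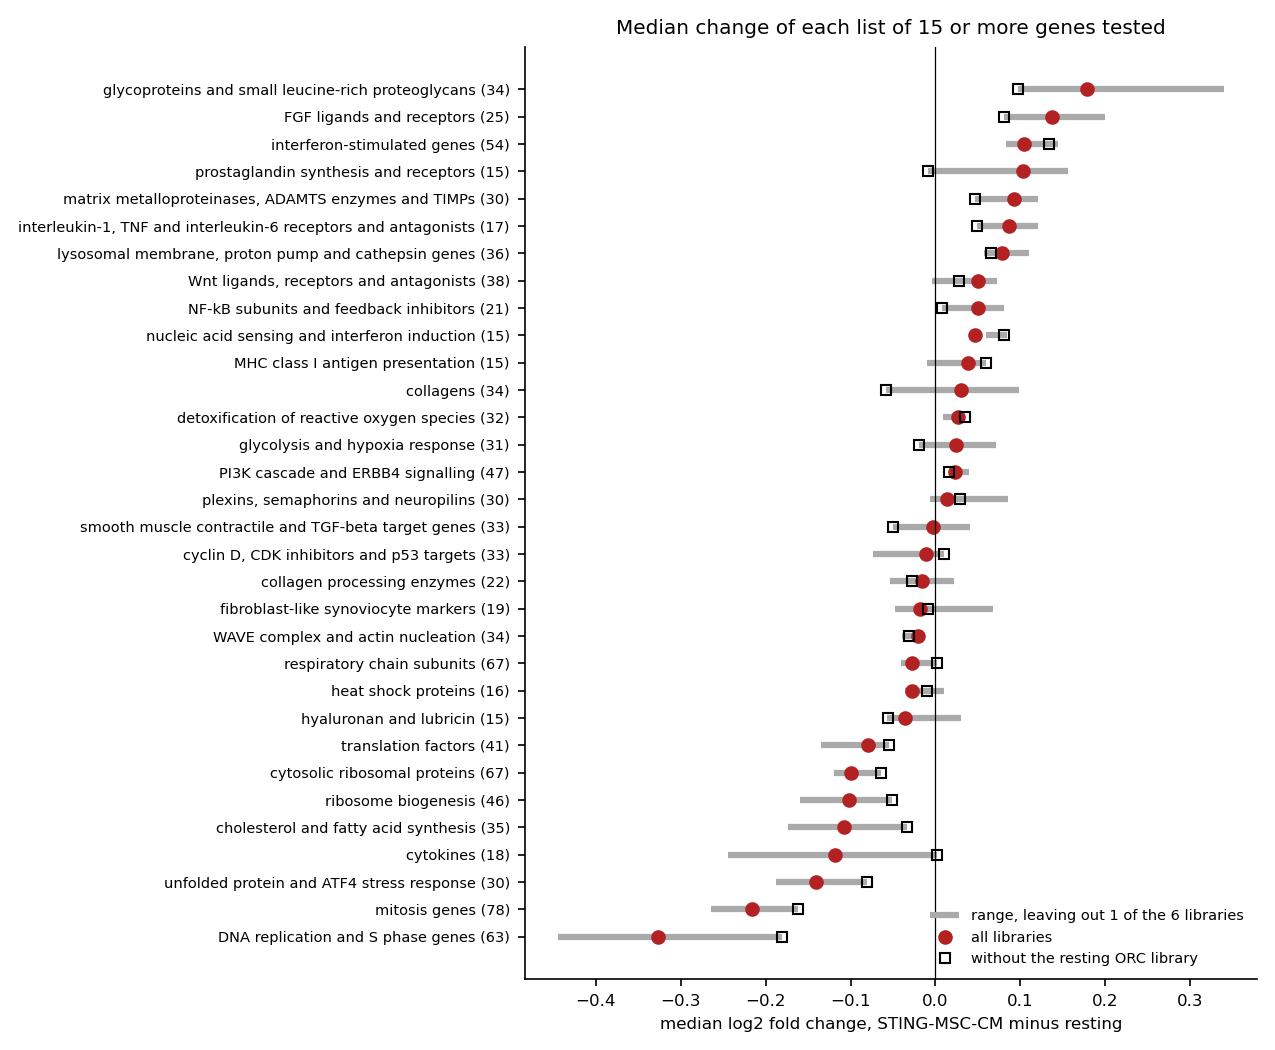
Median log2 fold change, STING-MSC-CM minus resting MSC-CM (x axis), of each list with at least 15 genes tested (y axis, number of genes in parentheses). Red points show all libraries, grey bars the range when 1 of the 6 libraries was left out and open squares the value without the ORC library with resting MSC-CM. The S phase genes moved most, from −0.33 to −0.18 in that case.

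The study set its thresholds at an unadjusted p no higher than 0.05 together with a log2 change no smaller than 2. By these, 59 genes passed (0.405% of those tested), 26 higher and 33 lower. All had few counts. None reached a mean of 1 CPM, and the highest count of any of them in any of the 6 libraries was 21. In 22 of them no library had more than 3 counts in the resting group alone, in 31 in the group with STING-MSC-CM alone, and in 3 in both groups. Ratios for such genes are given from the counts summed over the 3 libraries of a group, scaled to library size, with a 95% exact (Clopper-Pearson) interval that covers counting error only. MPZL2, an epithelial adhesion protein, had 4, 1 and 0 counts with resting MSC-CM and 10, 8 and 12 with STING-MSC-CM, a ratio of 5.42 (2.08 to 17.9). ACTL10, an actin-like gene, had 3, 1 and 2 counts against 9, 6 and 12, a ratio of 4.07 (1.65 to 12.05). CELSR1, a planar polarity cadherin, had 2, 0 and 2 counts against 8, 6 and 12. TINAG, a basement membrane protein of the kidney tubule, had 0, 2 and 2 counts against 8, 8 and 6, a ratio of 4.97 (1.69 to 19.8). DYNLL1, a dynein light chain, had 0, 2 and 0 counts against 11, 6 and 2, a ratio of 8.59 (2.07 to 76.0). CYFIP2, PKHD1L1 and PLXNC1, which the study names, had 0 counts in all 3 resting libraries.

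CYFIP2, a component of the WAVE complex that starts actin branches, had 6, 4 and 2 counts with STING-MSC-CM. With 3 counts set in place of 0 over the resting group, the ratio was 3.62. Such a ratio leaves out the counting error of the group with STING-MSC-CM and is not a lower limit. PKHD1L1 had 4, 2 and 5 counts and a ratio of 3.31 set in the same way. The semaphorin receptor PLXNC1 had 4, 2 and 3 counts and such a ratio of 2.71. The library with the cytokines only had 3 counts of CYFIP2, 4 of PKHD1L1 and 1 of PLXNC1. CYFIP2 had 3, 1 and 8 counts with TLR-MSC-CM. On the lower side HECW1, a ubiquitin ligase, had 14, 18 and 7 counts with resting MSC-CM and 3, 4 and 0 with STING-MSC-CM, a ratio of 0.162 (0.0612 to 0.367). KIRREL3, a cell adhesion molecule, had 5, 6 and 8 counts against 0, 0 and 1, a ratio of 0.0476 (0.00115 to 0.299). RPS6KL1 had 1, 20 and 2 counts against 1, 1 and 1, so that the ORC library with resting MSC-CM alone set it apart. KIAA1549L had 8, 6 and 1 counts against 1, 0 and 1, a ratio of 0.121 (0.0134 to 0.518). H2BC17, 1 of a family of near-identical histone genes whose reads may be split between copies, had 6, 7 and 3 counts against 1, 2 and 0. Over 34 genes of the WAVE complex and actin nucleation the median fold change was −0.021, and over 30 plexins, semaphorins and neuropilins it was 0.014.

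Whether the change with STING-MSC-CM differed between synoviocytes and the other joint cells was tested by an interaction term over 18 libraries. Against chondrocytes, 0 of 16177 genes had an adjusted p below 0.05 with edgeR, and 273 had an unadjusted p below 0.05 (1.69%). Against macrophages the counts were 0 and 742 (4.59%), and DESeq2 gave 0 and 4 genes by adjusted p against chondrocytes and macrophages. With the line as a block within each cell type, 29 genes differed from macrophages by adjusted p and 0 from chondrocytes. NEMP1 had a log2 fold change of −0.34 in synoviocytes, −0.047 in chondrocytes and 0.28 in macrophages. COL4A1, a basement membrane collagen, had −0.027, 0.086 and 0.90 in the same order, with the smallest unadjusted p of the difference from macrophages (adjusted p = 0.836 by edgeR). In synoviocytes alone, COL4A1 had an unadjusted p above 0.05 in all 18 alternatives. Fold changes within chondrocytes and macrophages are given here without a p of their own. The difference for CYFIP2 was 4.87 from chondrocytes and 4.94 from macrophages, on the counts given above. The median of the S phase genes was −0.33 in synoviocytes, −0.043 in chondrocytes and −0.0055 in macrophages, and 0 and 7 of these genes differed at an unadjusted p below 0.05. The median of the interferon-stimulated genes was 0.10, 0.73 and 0.069, and 11 and 1 genes differed. How far single chondrocyte libraries set the value of 0.73 was not tested. LGALS3BP, named for its interaction p, had 4577, 39 and 29 counts in chondrocytes with STING-MSC-CM and 7, 8 and 11 with resting MSC-CM. Its difference there lay mostly in the AG1 library.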

How the data were processed

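RNA sequencing counts of equine synoviocytes were analysed. The authors used Cutadapt 1.12 for trimming, STAR for alignment to the EquCab3.0 genome and HTSeq 0.11.0 for counting, and they deposited whole-number read counts of protein coding genes that carry no normalization. Of 20881 genes, 3970 are listed by Ensembl identifier only and appear in counts of genes but not by name. The 13 mitochondrially encoded genes are at 0 in all libraries.

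The 9 synoviocyte libraries with MSC-CM were fitted together with edgeR 4.0.16 (TMM normalization, robust quasi-likelihood test, prior count 0.125) in R 4.3.3, keeping genes with at least 10 counts in total, the minimum the methods of the study state. P-values were adjusted by Benjamini-Hochberg over all genes tested. Displayed CPM use TMM factors over all 11 synoviocyte libraries, and log2 levels use a pseudocount of 1. Differences between cell types were tested by an interaction term over 18 libraries. The fit of the synoviocyte libraries was tested on simulated data, and the interaction test was not. Alternatives were DESeq2 1.42.0, RLE size factors, other low-count filters, a prior count of 2, only the 6 libraries, the line as a block, and leaving out libraries or lines. A fit without robust estimation was added after seeing the data. Sequencing depth limits precision at low counts, and intervals cover counting error only.

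Named genes were, in each direction, the 12 genes with a symbol, a mean of at least 1 CPM, the same direction in all 3 lines and the smallest p, the 5 genes past the study's thresholds with the most counts, marked genes and the 2 genes with the smallest p of each list, 7 genes the study names for these cells, and the 3 genes with the smallest interaction p. The members and the gene lists were chosen with earlier results of these data known. Libraries with the same line name in the labels were treated as pairs in the block, since the study describes matched replicates, although the labels do not tie the name to an MSC donor. Across 11682 genes, the deviations of the paired libraries from their group means correlated at −0.386 for AG1, −0.306 for ORC and 0.0990 for PC, so that the data themselves show no pairing. Libraries within a group differed by more than counting noise, with a chi-square per degree of freedom of 7.74 to 37.5. Results for some genes are not reported here.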

Additional observations from a re-analysis of the deposited data

How the results depend on the processing

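No gene had an adjusted p below 0.05 in any of the 18 alternatives for STING-MSC-CM against resting MSC-CM. No named gene that had an unadjusted p below 0.05 changed direction, which the libraries shared between the fits favour. List medians changed direction in 56 of 738 values, over 19 of 41 lists. The 59 genes past the study's thresholds became 38 with DESeq2, 1 with filterByExpr, 1 with a prior count of 2, 33 with the replicate block and only the 6 libraries, and 33 to 73 when a library or line was left out. The 973 genes with an unadjusted p below 0.05 became 382 to 1732 when a library or line was left out, lowest without the ORC library with resting MSC-CM and highest without that of AG1, 466 without the ORC library and 647 without the PC library with STING-MSC-CM, 524 without line ORC and 504 without line PC. Without robust estimation, an alternative chosen after seeing the data, the count was 1109. With the line as a replicate block it was 780, and 42 genes passed the study's thresholds. Over the fits with a library or line left out, the median of the interferon-stimulated genes ran from 0.083 to 0.14, that of complement genes from 0.28 to 0.87, that of S phase genes from −0.47 to −0.12, that of mitosis genes from −0.32 to −0.12 and that of ribosomal protein genes from −0.14 to −0.064. Genes differing from macrophages numbered 0, but 4 with DESeq2 and 29 with the block. Of the values of list medians under the alternatives, 75 moved by more than the SD over lines, and of 3018 values of named genes 90 did. The cause was not tested. Where a group was left with 2 libraries, its spread was taken from all groups.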

Other observations

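Synoviocytes differed little between the media in genes of energy metabolism and of defence against reactive oxygen. Of 67 nuclear genes for respiratory chain subunits, 27 had a positive fold change, with a median of −0.027 (log2, STING-MSC-CM minus resting MSC-CM). Over 31 glycolysis and hypoxia genes the median was 0.024, and −0.019 without the ORC library with resting MSC-CM. PFKFB4, which sets the level of fructose 2,6-bisphosphate, was at 2.22, 1.97 and 2.23 CPM with resting MSC-CM and 3.09, 3.1 and 2.79 CPM with STING-MSC-CM, without overlap between the groups (0.49 ± 0.19, SE). The cystine transporter SLC7A11 was at 7.72, 8.66 and 9.52 CPM with resting MSC-CM and 8.36, 4.76 and 6.44 CPM with STING-MSC-CM (−0.38 ± 0.17), and its groups overlapped. PRDX2, a peroxiredoxin, was at 50.1, 45.6 and 47.6 CPM with resting MSC-CM and 52.6, 56.5 and 51.5 CPM with STING-MSC-CM, without overlap (0.16 ± 0.067). The 32 detoxification genes tested had a median of 0.027. Heat shock genes had a median of −0.027 over 16 genes, and the mitochondrial chaperonin HSPD1 was at 190.3, 243 and 220.1 CPM with resting MSC-CM and 204, 174 and 184 CPM with STING-MSC-CM (−0.21 ± 0.097). None of these genes passed the adjusted threshold in edgeR.

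UCMA, a cartilage matrix protein, was at 0.257, 0.0358 and 0.0349 CPM with resting MSC-CM and at 0 in the 8 other synoviocyte libraries, most of its counts in the AG1 library with resting MSC-CM. MUSTN1, a gene of muscle and mural cells, was at 5.85, 3.68 and 4.36 CPM with resting MSC-CM and 6.91, 7.78 and 6.37 CPM with STING-MSC-CM (0.59 ± 0.21), and the 8 mural cell markers tested had a summed level of 2964 to 4066 CPM with resting MSC-CM and 3878 to 3898 CPM with STING-MSC-CM, lowest in the ORC library with resting MSC-CM. The part of other cell types in the results was not tested.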
